A study of Mus musculus with 4 samples.

Results

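The subject is the BAF complex, the mammalian SWI/SNF chromatin remodeller, in embryonic mouse hearts in which the histone deacetylase gene Hdac3 was targeted. The 10 member genes are Smarca4, Smarca2, Smarcb1, Smarcc1, Smarcc2, Smarcd1, Smarcd3, Arid1a, Smarce1 and Pbrm1. They were chosen by name, and every non-control probe carrying such a name on the array was read, which gave 18 probes of 39429. Hearts were microdissected at embryonic day 9.5 and RNA of 3 hearts was pooled for each condition. The mutant pools are labelled Nkx2.5Cre; Hdac3f/f. The control pools came from littermates labelled Hdac3f/f, with no Cre named. Floxed Hdac3 alleles and a mixed CD1/B6/129 background are thus common to both groups. Cre expressed from Nkx2.5 acts in cardiac progenitors and their descendants, so other cells of the heart keep the gene, and the presence of Cre cannot be told apart from the loss of Hdac3. There were 4 two-colour Agilent arrays, each pairing 1 mutant pool with 1 control pool, and the labels call them biological replicates. For replicates 2 to 4 the free-text description mentions embryonic stem cells, whereas the title, tissue and genotype all give hearts.

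The direction of the ratios is not settled. The labels place mutant RNA in Cy5 on every array. The authors' deposited table names its columns mutant against wild type, and on probes with both signals above 2000 these columns ran with Cy5 over Cy3 on arrays 1 and 2 (slopes 1.02 and 1.01) and against it on arrays 3 and 4 (slopes -0.99 and -1.02). Ratios are therefore given in the direction of the authors' table, which its column names make likely, and again with all arrays read as labelled, which turns arrays 3 and 4. In the labelled reading mutant RNA is in Cy5 throughout, as it is over arrays 1 and 2 alone in either reading. Genotype and dye cannot be told apart there for any gene. Over the 25484 probes tested, arrays 1 and 4 correlated at r = -0.30 and arrays 2 and 4 at -0.12 in the authors' direction. Arrays 1 and 3 correlated at 0.086 and arrays 2 and 3 at 0.033 in that direction. As labelled these values became 0.30, 0.12, -0.086 and -0.033, so each reading held both signs. Arrays 1 and 2 correlated at 0.54 and arrays 3 and 4 at 0.42 in either reading. Array 3 stood apart by its spread, with an SD of log2 ratios over all probes of 0.44, against 0.21 to 0.25 on the other arrays. The single Hdac3 probe had log2 ratios of -0.22, -0.50, -0.52 and -1.15 on arrays 1 to 4, and as labelled the last 2 became 0.52 and 1.15. Whether this probe lies inside the deleted segment was not established here, so it does not settle the labels. All 15 sarcomere genes, which mark heart muscle, were well above background in all 8 channels. Their median level lay at percentile 99.3 to 99.8 of all probes in mutant channels and 99.2 to 99.6 in control channels. Of 9 pluripotency genes, 7 were above background in all channels. Their median level lay at percentile 60.8 to 63.9 in mutant and 59.8 to 61.7 in control channels. What these levels mean for the descriptions that name stem cells was not tested.

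BAF complexes use the energy of ATP to slide or evict nucleosomes, which opens DNA to transcription factors. Canonical BAF and the related PBAF complex each hold 1 of a pair of alternative ATPases, Smarca4 (BRG1) or Smarca2 (BRM). Their core is built around the scaffolds Smarcc1 and Smarcc2, with Smarcb1, Smarce1 and a Smarcd subunit. Arid1a marks canonical BAF, and Pbrm1 marks PBAF. In the embryonic heart, the subunit Smarcd3 (BAF60c) is known to link the complex to cardiac transcription factors such as Tbx5, Nkx2-5 and Gata4.

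Of the 18 probes, 16 were designed on RefSeq transcripts and 2 on cDNA clone records, 1 each for Smarcc1 and Pbrm1. Smarca2, Smarcb1, Smarcc2, Smarcd1 and Smarcd3 had 1 probe each, and the other 5 genes had several. Probes of a gene are numbered by their start on the transcript record. A set of 6 probes is printed, which does not hold every probe of the genes compared below. It includes the 2 member probes that span more of the genome than their own length. All positions are those of the array design on mm9, per the file headers, and each probe is printed in the sense of the transcript in lower case, with nothing in capitals because no base was singled out. The probe of Smarcd3 (NM_025891, transcript bases 1513 to 1572) spans chr5:24098592-24098863 on the minus strand, 212 bases more than its own length of 60. Smarcc1 probe 3 (NM_009211, bases 2838 to 2897) spans chr9:110116115-110124422 on the plus strand, 8248 bases more than its length. Smarcc1 probe 2 (bases 2750 to 2809, chr9:110116027-110116086) ends 28 transcript bases before probe 3 begins. Smarca4 probe 1 (NM_001174079, bases 4270 to 4329) lies at chr9:21483531-21483590 on the plus strand. Arid1a probe 1 (NM_001080819, bases 6764 to 6823) lies at chr4:133236274-133236333 on the minus strand, and Pbrm1 probe 2 (NM_001081251, bases 471 to 530) at chr14:31840656-31840715 on the plus strand.
Smarcd3: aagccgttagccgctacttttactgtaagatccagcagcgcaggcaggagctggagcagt
Smarcc1 probe 2: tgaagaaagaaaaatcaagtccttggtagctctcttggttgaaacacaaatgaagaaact
Smarcc1 probe 3: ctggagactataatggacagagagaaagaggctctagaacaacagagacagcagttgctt
Smarca4 probe 1: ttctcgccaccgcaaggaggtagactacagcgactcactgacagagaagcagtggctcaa
Arid1a probe 1: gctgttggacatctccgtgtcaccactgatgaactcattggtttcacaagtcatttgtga
Pbrm1 probe 2: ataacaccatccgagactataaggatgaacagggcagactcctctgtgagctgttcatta
The remaining probes are identified by position. Smarca2 was read at chr19:26852751-26852810, Smarcb1 at chr10:75359522-75359581, Smarcc2 at chr10:127926650-127926709 and Smarcd1 at chr15:99543759-99543817. Smarca4 probe 2 lies at chr9:21507751-21507810 and Arid1a probe 2 at chr4:133235092-133235151. The Smarce1 probes lie at chr11:99071347-99071406 and chr11:99070435-99070494. Smarcc1 probes 1 and 4 lie at chr9:110086584-110086643 and chr9:110140717-110140776, and Pbrm1 probes 1 and 3 at chr14:31836296-31836355 and chr14:31932074-31932133.

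Every subunit was expressed in mutant and control hearts alike. All 18 probes were well above background in all 8 channels, so each member passed the filter on dim probes in both groups. Taking the brightest probe of each gene, the median level of the 10 members lay at percentile 85.0 to 86.3 in mutant channels and 84.9 to 87.3 in control channels. In no probe did the mutant and control levels separate (0 of 18, where 2.52% of all probes tested had levels that did not overlap). Levels are log2 intensities after normalization within and between arrays, and a level of 1 probe cannot be set against that of another.

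**Figure D1:**
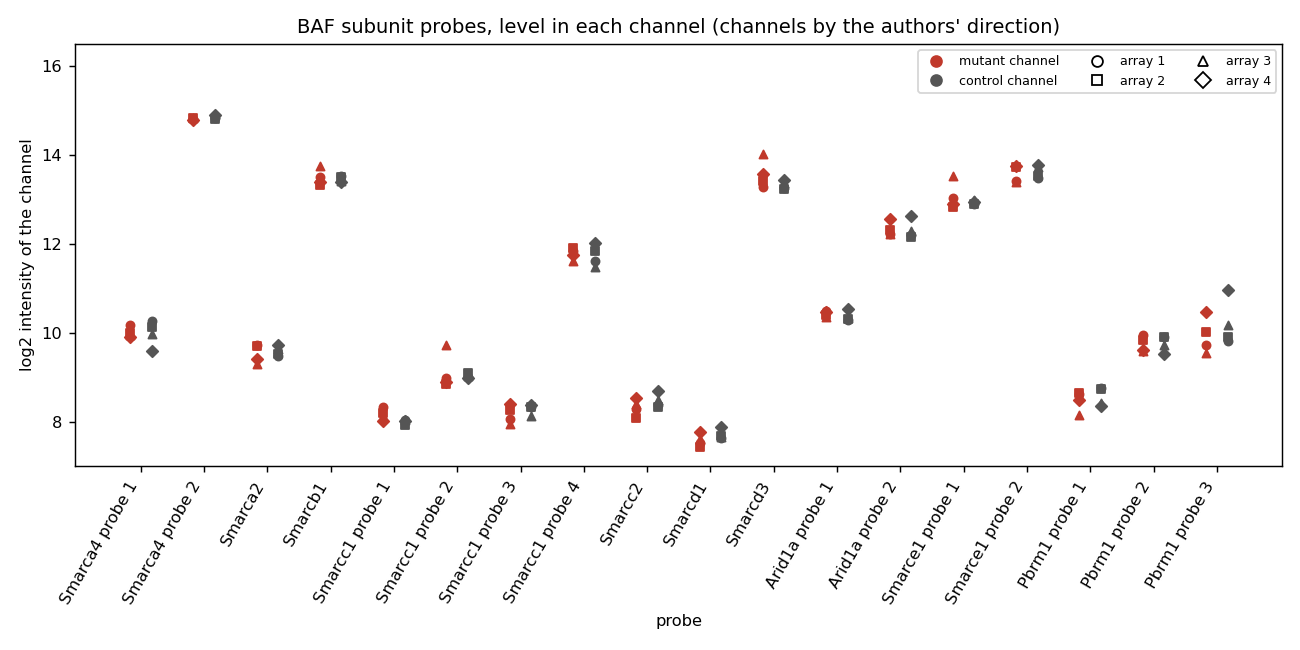
Log2 intensity of the 18 BAF subunit probes (y axis) in the mutant channel (red, left) and the control channel (grey, right) of each array, with the shape of a point showing the array and channels assigned by the direction of the authors' table. The mutant and control points overlap for every probe. The array 3 mutant points of Smarcb1 (13.76), Smarcc1 probe 2 (9.72), Smarcd3 (14.03) and Smarce1 probe 1 (13.53) lie above their other points.

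The comparison asked whether transcripts of the remodeller differ between Hdac3 mutant and control hearts. No member passed the test. With limma, 0 of the 18 member probes had an adjusted p below 0.05 (0.0% of all 25484 probes tested did), and the smallest adjusted p of a member was 0.579. Taking p without adjustment, 0 member probes were higher and 0 lower at the 0.05 level, where 3.65% of all probes were higher and 4.88% lower. Mean log2 ratios of the member probes ran from -0.29 to 0.25, with 9 above and 9 below 0, and their median was -0.0059, against 0.0063 over all probes tested. The median SD over the 4 arrays was 0.22 for member probes and 0.19 for all probes, above the median absolute mean ratio of 0.096 for members and 0.091 for all. In these pooled hearts, fewer cells of a type and less RNA per cell cannot be told apart.

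One sign on all 4 arrays was seen in 4 of the 18 member probes, where 19.8% of all probes tested had it. There were 2 member probes above 0 on all 4 arrays, those of Smarcd3 and Smarcc1 probe 1, where 9.63% of all probes tested were. Another 2 were below 0 on all 4, those of Smarcc2 and Smarcd1, where 10.2% of all probes were. For 11 of the 18 member probes the mean of arrays 1 and 2 had the opposite sign to the mean of arrays 3 and 4, which also held for 51.6% of all probes. Array 3 gave the ratio farthest from 0 for 10 of the 18 member probes, and for 51.0% of all probes tested. As labelled, 4 member probes were above 0 on all 4 arrays (12.6% of all probes were) and 0 below (13.2% were), so 4 held one sign, where 25.8% of all probes did. In that reading 12 probes of the whole table passed (0.0471%), none of them a member, and 1 member probe had an unadjusted p below 0.05, the Smarca2 probe, on the higher side, where 6.89% of all probes fell; 0 were on the lower side, where 6.85% fell.

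**Figure D2:**
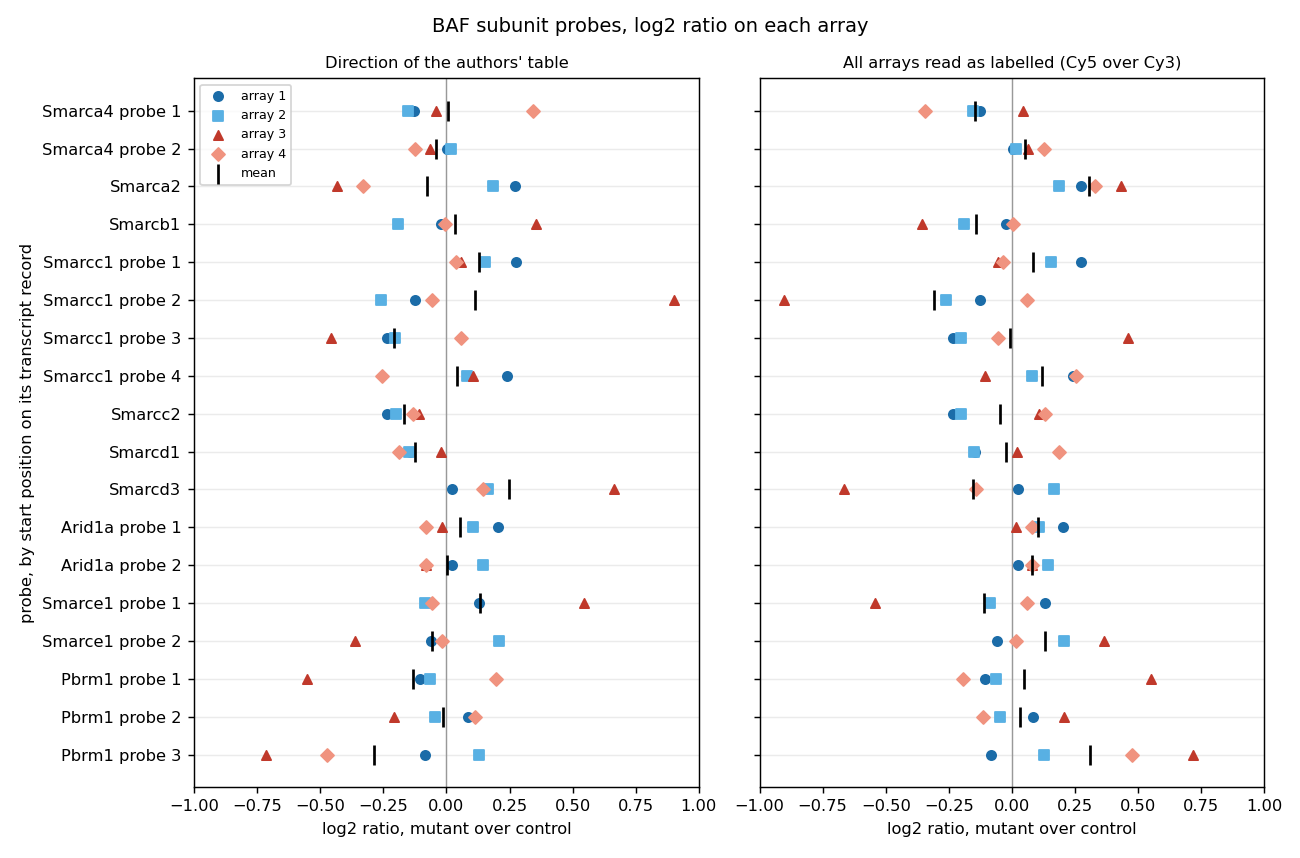
Log2 ratio of mutant over control (x axis) for each of the 18 probes on each of 4 arrays (coloured points), with the mean as a black bar, in the direction of the authors' table (left panel) and with all arrays read as labelled (right panel). Points of Smarca2 fall on both sides of 0 on the left (mean -0.077) and on 1 side on the right (mean 0.31), and those of Smarcd3 and Smarcc2 do the reverse.

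Neither ATPase gene passed the test. Smarca4, whose protein BRG1 is required for mouse heart development, had log2 ratios of 0.004, 0.018, -0.065 and -0.13 on arrays 1 to 4 with its brighter probe 2. Its levels were 14.79 to 14.84 in the mutant channels and 14.81 to 14.92 in the control channels, so the 2 groups overlapped within a narrow band. The mean ratio was -0.042 ± 0.067 (SD, n = 4 arrays), with a 95% interval of -0.22 to 0.13 and an adjusted p of 0.859 (limma). Probe 1, which is dimmer, read -0.13, -0.15, -0.043 and 0.34, a mean of 0.0052 ± 0.23 (SD, n = 4). The 2 probes differed most on array 4, by 0.47. As labelled, the means were 0.053 for probe 2 and -0.15 for probe 1, with adjusted p-values of 0.716 and 0.476 (limma), so the probes differed in sign there too.

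Smarca2, whose protein BRM is the alternative ATPase and is known to be more abundant in differentiated cells, followed the dye on all arrays. Its log2 ratios were 0.27 and 0.18 on arrays 1 and 2 and -0.43 and -0.33 on arrays 3 and 4. In the authors' direction the mean was -0.077 ± 0.36 (SD, n = 4; 95% interval -0.42 to 0.26; limma adjusted p = 0.870). As labelled, all 4 ratios were above 0, with a mean of 0.31 ± 0.10 (SD, n = 4), an unadjusted p of 0.00495 and an adjusted p of 0.189 (limma). As for every gene in that reading, whether the Cy5 excess belongs to the genotype or to the dye cannot be told apart. Channel levels were 9.72, 9.70, 9.29 and 9.40 in the mutant and 9.47, 9.52, 9.64 and 9.72 in the control.

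Smarcb1 and Smarce1 had ratios of both signs over the 4 arrays. Smarcb1, a core subunit known as a tumour suppressor in humans, had ratios of -0.022, -0.19, 0.36 and -0.0040, and only array 3 lay clearly above 0. Its mean was 0.035 ± 0.23 (SD, n = 4; 95% interval -0.22 to 0.29; limma adjusted p = 0.924), and without array 3 it was -0.072. As labelled the mean was -0.14 ± 0.17 (SD, n = 4), which did not pass the test either. Smarce1, the subunit with an HMG domain, had 2 bright probes that opposed each other on array 3. Probe 1 read 0.13, -0.085, 0.54 and -0.059 and probe 2 read -0.060, 0.21, -0.36 and -0.018, a gap of 0.91 on array 3 and of at most 0.29 on the others. The means were 0.13 ± 0.29 and -0.058 ± 0.23 (SD, n = 4), with limma adjusted p-values of 0.728 and 0.869, and -0.11 and 0.13 as labelled. On array 3 the probes of this gene thus differed from each other by more than either mean differed from 0.

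Smarcc1 (BAF155), a scaffold that protects other subunits from degradation, gave the widest disagreement between probes. Probes 2 and 3, which read the same RefSeq transcript 28 bases apart, had log2 ratios of 0.90 and -0.46 on array 3, a difference of 1.36. On arrays 1, 2 and 4 the same 2 probes differed by only 0.11, -0.059 and -0.12. Probe 2 read -0.12, -0.26 and -0.059 on those arrays and probe 3 read -0.23, -0.20 and 0.057. The mutant channel level of probe 2 on array 3 was 9.72, against 8.86 to 8.98 on the other arrays, while its control level there was 9.02, within the 8.99 to 9.09 of the others. The means were 0.11 ± 0.53 for probe 2 and -0.21 ± 0.21 for probe 3 (SD, n = 4; limma adjusted p = 0.858 and 0.597). Probe 4, the brightest and the nearest to the end of the transcript, read 0.24, 0.081, 0.11 and -0.26, a mean of 0.043 ± 0.21 (SD, n = 4; 95% interval -0.20 to 0.28; limma adjusted p = 0.899). Probe 1, on the clone record, was above 0 on every array, at 0.28, 0.15, 0.056 and 0.037, with a mean of 0.13 ± 0.11 (SD, n = 4; limma adjusted p = 0.630). As labelled the 4 probes had means of 0.084, -0.31, -0.0085 and 0.12, none past the test (smallest limma adjusted p = 0.449).

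Smarcc2 (BAF170), the other scaffold, was the member of smallest p. It was below 0 on all 4 arrays, at -0.23, -0.20, -0.11 and -0.13, with a mean of -0.17 ± 0.059 (SD, n = 4), a ratio of 0.890. The 95% interval of -0.34 to 0.0037 reached 0, and the adjusted p was 0.579 (limma). Mutant levels of 8.28, 8.08, 8.41 and 8.53 stood beside control levels of 8.37, 8.32, 8.49 and 8.70. Each mutant level was below its own array's control, but the 2 groups overlapped, since the arrays differed from each other by more. As labelled, arrays 3 and 4 stood above 0 and the mean was -0.049 ± 0.20 (SD, n = 4; limma adjusted p = 0.832).

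The Smarcd subunits bridge the complex and transcription factors, and their readings went apart. Smarcd3, the cardiac BAF60c, was above 0 on every array, at 0.023, 0.17, 0.67 and 0.14, so that array 3 held most of the difference. The mean was 0.25 ± 0.28 (SD, n = 4; 95% interval -0.038 to 0.54), a ratio of 1.19, with an adjusted p of 0.597 (limma), and without array 3 the mean was 0.11. Its levels were 13.27, 13.41, 14.03 and 13.58 in the mutant channels and 13.25, 13.24, 13.37 and 13.44 in the control channels, with an overlap. As labelled, the mean was -0.16 ± 0.36 (SD, n = 4; limma adjusted p = 0.645). The sarcomere list, which marks heart muscle, had medians of 0.085, 0.30, -0.14 and -0.15 on arrays 1 to 4, with 8 of 15 genes above 0 on average. As labelled the median over these genes was 0.17, with 13 of 15 above 0, where 9811 of all 19631 genes tested were. In that reading 8 were above 0 on all 4 arrays, where 13.2% of all genes were. The part of this list in the Smarcd3 readings was not tested. Smarcd1 (BAF60a), the more widely expressed paralogue, was below 0 on every array, at -0.14, -0.15, -0.022 and -0.19. Its mean was -0.13 ± 0.072 (SD, n = 4; 95% interval -0.30 to 0.050; limma adjusted p = 0.623), and as labelled it was -0.021 (limma adjusted p = 0.922).

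The subunits that tell BAF from PBAF also stayed short of the threshold. Arid1a, the DNA-binding subunit of canonical BAF, had 2 probes that differed by at most 0.063 on arrays 2 to 4 and by 0.18 on array 1. The brighter probe 2 read 0.024, 0.14, -0.079 and -0.080, a mean of 0.0020 ± 0.11 (SD, n = 4; 95% interval -0.19 to 0.19; limma adjusted p = 0.995), and probe 1 had a mean of 0.054 ± 0.13. As labelled both probes were above 0 on all 4 arrays, at means of 0.082 and 0.10 (limma adjusted p = 0.580 and 0.526). Pbrm1 (polybromo), which binds acetylated histones through its bromodomains, had the lowest mean of all members. Its brightest probe, probe 3, read -0.084, 0.13, -0.72 and -0.47, a mean of -0.29 ± 0.38 (SD, n = 4; 95% interval -0.64 to 0.069; limma adjusted p = 0.604). The low values thus came from arrays 3 and 4, and the mean was 0.022 over arrays 1 and 2. Probe 2, on the same transcript, had a mean of -0.014 ± 0.15 and probe 1, on the clone record, -0.13 ± 0.31 (SD, n = 4 each; limma adjusted p = 0.969 and 0.740). Probe 3 also differed between arrays in level, with mutant values of 9.56 to 10.47 and control values of 9.82 to 10.96. As labelled its mean was 0.31 (limma adjusted p = 0.401).

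Pairs of paralogues among the subunits were compared within each array, a comparison chosen after the values were seen. The difference of log2 ratios, Smarcd3 minus Smarcd1, was 0.17, 0.31, 0.69 and 0.33 on arrays 1 to 4, with a mean of 0.38 ± 0.22 (SD, n = 4). Since Smarcd3 was above and Smarcd1 below 0 on every array, the sign of this difference was set when the pair was chosen, and no test is given for any of the 3 pairs. As labelled it was above 0 on 2 arrays, with a mean of -0.13 ± 0.46 (SD, n = 4). For Smarcc1 minus Smarcc2, with the brightest Smarcc1 probe, the mean was 0.21 ± 0.25, and as labelled 0.17 ± 0.29 (SD, n = 4 each). For Smarca4 minus Smarca2 it was 0.034 ± 0.30 and as labelled -0.25 ± 0.088 (SD, n = 4 each), below 0 on all 4 arrays in the second reading alone.

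**Figure D3:**
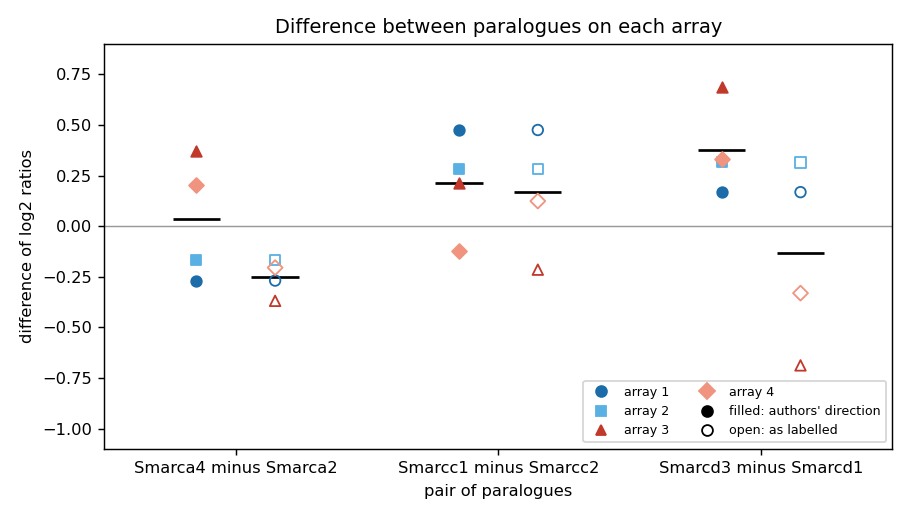
Difference of log2 ratios between paralogues (y axis) for 3 pairs (x axis) on each array, in the authors' direction (filled points) and as labelled (open points), with black bars for the means. Smarcd3 minus Smarcd1 lies above 0 on all arrays only when filled (mean 0.38), and Smarca4 minus Smarca2 below 0 on all arrays only when open (mean -0.25).

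The other subunits of BAF, PBAF and the non-canonical complex were read in the same way. Of 21 such genes, 20 were tested, and Actl6b, the neuronal actin-related subunit, was not well above background in any channel. By their brightest probe 9 had a mean above and 11 below 0, the median was -0.0050 (0.011 over all 19631 genes tested), and 0 passed the test (limma). At an unadjusted p below 0.05, 1 was higher, where 3.84% of all genes were, and 3 were lower, where 4.56% were. As labelled, 1 was higher and 2 were lower at that level, where 7.39% and 7.26% of all genes were, and 2 were above and 2 below 0 on all 4 arrays, where 13.2% and 13.6% of all genes were. Bcl11b, a zinc-finger factor that also occurs as a BAF subunit, was lower on all 4 arrays, at -0.19, -0.46, -0.23 and -0.16, with a mean of -0.26 ± 0.14 (SD, n = 4; limma adjusted p = 0.579). Its mean was -0.13 from scanner signals with loess and -0.53 from the scanner software's ratio. Its paralogue Bcl11a, known as a regulator of globin switching in red blood cells, had a mean of -0.26 ± 0.20 (SD, n = 4), with values of -0.078, -0.53, -0.14 and -0.31, and a second tested probe had a mean of -0.28. Beside it, the list of 11 primitive red blood cell genes had medians of -0.15, -0.64, -0.37 and -0.33 on arrays 1 to 4. Of their means 11 of 11 were below 0, where 9136 of all 19631 genes tested were. As labelled their median was 0.028, with 6 means above and 5 below 0. Their median level lay at percentile 74.3 to 79.7 in mutant channels and 75.6 to 79.2 in control channels, and all 11 genes were above background in every channel. Their part in the Bcl11a reading was not tested. Some other cell type lists leaned 1 way as well. The 6 tested liver and foregut endoderm genes all had means above 0, and the 5 epicardial genes all had means below 0. The endocardial and endothelial list had 6 above and 4 below.

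Actl6a (BAF53a), an actin-related subunit of proliferating progenitors, was at -0.16, -0.095, -0.62 and -0.19, a mean of -0.27 ± 0.24 (SD, n = 4; limma adjusted p = 0.579). Dpf1 (BAF45b), known from neurons, was at 0.25, 0.22, 0.86 and 0.11, a mean of 0.36 ± 0.34 (SD, n = 4; limma adjusted p = 0.579), and its other probe had a mean of 0.12. For both genes array 3 was farthest from 0, and without it the means were -0.15 and 0.19. Gltscr1, a subunit of the non-canonical complex, had a mean of 0.24 ± 0.29 and the accessory subunit Bcl7b one of 0.24 ± 0.36 (SD, n = 4 each; limma adjusted p = 0.602 and 0.628), and each was below 0 on array 4. Without array 3 the means were 0.14 for Gltscr1 and 0.063 for Bcl7b. As labelled, the means of Dpf1, Actl6a and Bcl7b changed sign, to -0.12, 0.14 and -0.14, while those of Bcl11b, Bcl11a and Gltscr1 were -0.066, -0.040 and 0.023.

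**Figure D4:**
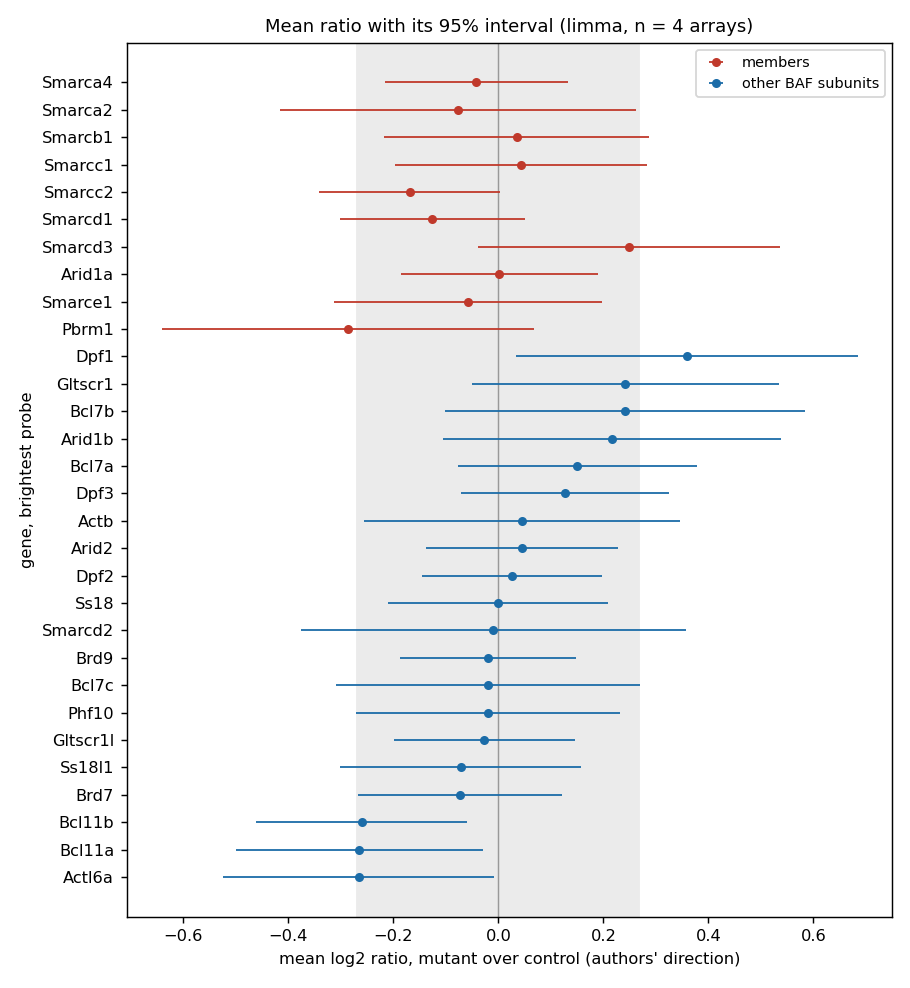
Mean log2 ratio of mutant over control in the authors' direction (x axis) with its 95% limma interval, by the brightest probe, for the 10 members (red) and 20 other BAF subunits (blue); the grey band holds the 5th to 95th percentile of all 19631 genes tested, -0.27 to 0.27. The intervals of all members include 0, while those of Bcl11b, Bcl11a, Dpf1 and Actl6a, not adjusted over genes, do not. The means of Pbrm1 (-0.29) and Dpf1 (0.36) lie outside the band.

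Other chromatin regulators were set beside the members by their medians. The 10 members had a median log2 ratio of -0.050, with 4 means above and 6 below 0, and as labelled 6 were above and 4 below. Leaving out 1 array moved the members' median between -0.090 without array 2 and -0.0032 without array 4, it was -0.0063 without array 3, and over arrays 1 and 2 only it was 0.048. The 32 tested genes of the ISWI, CHD and INO80 families of remodellers had a median of 0.020, with 21 above and 11 below 0, and as labelled 14 were above and 18 below. The medians were -0.011 for 11 subunits of Polycomb repressive complex 2 and 0.081 for 10 histone acetyltransferases, and 0 genes of any of these lists passed the test (limma). The 8 cardiac transcription factors known to work with BAF had a median of 0.12, with 3 genes above 0 on all 4 arrays (10.0% of all genes were) and 0 below (9.71% were). As labelled the medians were 0.067 for the members, -0.019 for the other remodellers, -0.0058 for Polycomb, -0.0055 for the acetyltransferases and 0.10 for the cardiac factors. A list of 10 cell cycle genes had a median of -0.052, with 8 means below 0, and as labelled -0.019, with 5 above and 5 below 0. Its part in the members' values was not tested. None of these differences between lists was tested.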

How the data were processed

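The members, gene lists and alternatives were chosen with earlier results of these data known. The authors deposited scanner files with spot intensity for Cy3 and Cy5 and a log10 ratio of Cy5 over Cy3, from Agilent Feature Extraction 11.5.1.1 per the file headers, whereas the submitters' processing notes name version 8.5.1.1. The authors' deposited table holds log2 ratios, and the way they were normalized was not given in the sources used here. The medians of its columns were -0.029, -0.017, 0.017 and 0.023. Centring and method stay unknown, and direction is likely only. Flags of the scanner files mark spots well above background, an other value of 0 or 1, per the file headers.

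Rows of the table were matched to probes by name and repeated spots averaged. Tested were the 25484 of 39429 non-control probes whose mutant channel, or control channel, was well above background on each of the 4 arrays. The mean log2 ratio was tested against 0 with lmFit and eBayes in limma 3.58.1 (R 4.3.3), with Benjamini-Hochberg adjustment over all probes and a threshold of 0.05. Intervals are at 95% for each probe alone. A gene was represented by its brightest tested probe, and Epb42 was found under an older name. Levels came from normexp (offset 50) on mean and background intensity, loess within and Aquantile between arrays. All 4 arrays share 1 slide, and no spot was saturated. Mutant and control RNA are paired by array, and the deviations of the 2 channels of an array from their group means correlated at r = 0.41, -0.014, 0.34 and 0.53. The number of arrays limits precision. The text names all members, the 6 other BAF subunits of smallest p and Hdac3. The fit was tested on simulated data. Alternatives covered direction, dye, normalization, filter, probes, weights, pairing and each replicate left out.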

Additional observations from a re-analysis of the deposited data

How the results depend on the processing

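Member probes past the threshold numbered 0 in every fit run. Counts of member genes below are out of 10, beside these counts of all 25484 probes at an unadjusted p below 0.05. They were 3501 as labelled, 6763 with arrays 1 and 2 only, 5183 with array weights and 3778 with a dye term. They were 2170 with the scanner software's ratio, 1752 without replicate 2 and 1585 without replicate 3. With no filter on dim probes it was 2660 of 39422. With all arrays read as labelled, 12 probes of the whole table passed, 1 member gene had an unadjusted p below 0.05, the member median was 0.067, and means changed sign for Smarca4 (0.053), Smarca2 (0.31), Smarcb1 (-0.14), Smarcd3 (-0.16), Smarce1 (0.13), Pbrm1 (0.31), Dpf1 (-0.12), Actl6a (0.14) and Bcl7b (-0.14). With arrays 1 and 2 only, whose direction labels and table give alike, 19 probes passed, 2 member genes had an unadjusted p below 0.05 (Smarca2 and Smarcc2), and the sign turned for Smarca4 (0.011), Smarca2 (0.23), Smarcb1 (-0.11), Smarce1 (0.074) and Pbrm1 (0.022). Array weights gave 1 probe and 2 member genes (Smarcc2 and Smarcd1), with Smarca2 at 0.15, Smarcb1 at -0.063 and Smarce1 at 0.027. Median centring in place of loess gave medians of 0.078 for members and 0.079 for other subunits (0.057 over all probes), with Smarca4 at 0.10 and Smarce1 at 0.057. Unadjusted p fell below 0.05 for 2 member genes with a dye term (Smarcc2 and Pbrm1), and for 1, Smarcc2, with the scanner software's ratio or with no filter on dim probes. The mean over probes turned Smarce1 to 0.037 and gave a member median of 0.00056. Leaving out 1 replicate gave 0 to 4 probes called (4 without replicate 1), 0 to 1 member genes (Pbrm1 without replicate 2, Smarcc2 without replicate 3), and ranges that held both signs for Smarca2 (-0.19 to 0.042), Smarcb1 (-0.072 to 0.11), Smarcc1 (-0.023 to 0.14), Arid1a (-0.045 to 0.029) and Smarce1 (-0.15 to 0.043). With no replicate block, 0 probes and 0 member genes passed and the member median was -0.051, and no call changed. The cause of these shifts was not tested.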

Other observations

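With all arrays read as labelled, a different set of further BAF subunits had the smallest unadjusted p, named here after their values were seen. Smarcd2, the third Smarcd paralogue, had a mean log2 ratio of -0.31 ± 0.17 (SD, n = 4) and was below 0 on all 4 arrays, against -0.0092 in the authors' direction. Bcl7c, an accessory subunit, had a mean of -0.24 ± 0.081 as labelled and -0.020 in the authors' direction. Its other probe had a mean of -0.0965 as labelled, with 2 of 4 arrays above 0. In the authors' direction that probe had a mean of 0.20 and was above 0 on all 4 arrays. Actb, the actin of the complex and of the cytoskeleton, had a mean of 0.25 ± 0.11 as labelled and 0.046 in the authors' direction. None of the 3 passed over all probes (smallest limma adjusted p = 0.244). Arid2, the ARID subunit of PBAF, had probes that differed on array 3, at 0.0070 for the brighter and 0.91 for the other tested probe.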
